A study of Mus musculus with 6 samples.

Results

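The genes described here are 10 members of the endoplasmic reticulum (ER) unfolded protein response, taken as all probes whose platform annotation names Xbp1, Hspa5, Hsp90b1, Herpud1, Dnajb9, Sdf2l1, Pdia4, Atf6, Ern1 or Creld2. They had 16 of the 45281 probes on the array and 10 of its 19057 named genes. Of these, 14 probes of 9 genes were detected often enough to be tested, and both Atf6 probes were not. RNA came from regulatory T cells (Treg) of steady-state C57BL/6 mice of the genotype Foxp3gfp, sorted as TCRβ+CD4+Foxp3+ cells. MLN Treg (3 arrays) are those of the mesenteric lymph node and cLP Treg (3 arrays) those of the colon lamina propria, so that mouse strain, genotype and sort were shared and the tissue differed. The comparison asks how Treg of the colon differ from Treg of a lymph node that drains the gut.

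The unfolded protein response adjusts the folding capacity of the ER to the load of proteins that enter it. Its membrane sensors are IRE1 alpha (gene Ern1), ATF6 and PERK. IRE1 alpha cuts Xbp1 mRNA in an unconventional splicing step, after which XBP1 protein drives genes for ER chaperones and for the degradation of misfolded proteins. ATF6 is cut in the Golgi apparatus and acts on chaperone promoters, and PERK slows translation and raises ATF4. The pathway is best known from cells that secrete much protein, such as plasma cells, and is also engaged in activated lymphocytes.

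Promoter sequences are shown because the ER stress response element (ERSE) is the site through which ATF6 and XBP1, together with the CCAAT-binding factor NF-Y, act on many of these genes. RefSeq windows of 300 bases (250 before to 50 after the annotated start, GRCm38.p6) were found for 9 of the 10 members and searched on both strands. ERSE (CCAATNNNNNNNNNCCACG) was present in the windows of 3 members, Hspa5, Hsp90b1 and Creld2, and in 39 of all 32851 windows (0.119%). Its shorter relative ERSE-II (ATTGG and CCACG with 1 base between) was present in Herpud1 and in 12 of all windows (0.0365%). The letters TGACGTGG, 1 form of the unfolded protein response element (UPRE), were in none of the 9 member windows and in 222 of all windows (0.676%). Other forms of the UPRE were not searched. No matches of these elements in the members overlapped. The 250 bases before the start are given 5′ to 3′ on the coding strand, with ERSE and ERSE-II in capitals, for the 4 members with an element and for Ern1, the member with the largest difference, which had no match.
Hspa5, chr2:34771840-34772089, plus strand: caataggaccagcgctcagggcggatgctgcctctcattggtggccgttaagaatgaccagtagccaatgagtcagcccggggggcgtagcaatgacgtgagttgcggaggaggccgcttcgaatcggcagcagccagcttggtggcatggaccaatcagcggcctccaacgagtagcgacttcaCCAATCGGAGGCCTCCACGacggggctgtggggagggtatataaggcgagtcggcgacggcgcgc
Hsp90b1, chr10:86705445-86705694, minus strand: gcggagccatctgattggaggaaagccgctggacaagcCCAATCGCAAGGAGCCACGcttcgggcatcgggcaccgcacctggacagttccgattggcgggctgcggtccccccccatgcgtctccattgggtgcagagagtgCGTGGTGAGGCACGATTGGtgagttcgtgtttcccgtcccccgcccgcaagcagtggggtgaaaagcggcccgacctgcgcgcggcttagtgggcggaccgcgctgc
Creld2, chr15:88819396-88819645, plus strand: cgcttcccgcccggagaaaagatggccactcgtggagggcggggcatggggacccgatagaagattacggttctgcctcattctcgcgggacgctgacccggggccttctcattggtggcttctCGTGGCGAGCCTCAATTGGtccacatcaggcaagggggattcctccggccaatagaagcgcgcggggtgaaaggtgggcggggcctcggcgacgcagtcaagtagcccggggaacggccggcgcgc
Herpud1, chr8:94386179-94386428, plus strand: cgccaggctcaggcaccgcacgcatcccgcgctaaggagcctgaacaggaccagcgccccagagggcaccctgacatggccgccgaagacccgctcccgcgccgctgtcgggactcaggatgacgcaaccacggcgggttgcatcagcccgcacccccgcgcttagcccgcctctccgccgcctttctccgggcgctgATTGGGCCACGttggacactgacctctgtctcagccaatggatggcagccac
Ern1, chr11:106487797-106488046, minus strand: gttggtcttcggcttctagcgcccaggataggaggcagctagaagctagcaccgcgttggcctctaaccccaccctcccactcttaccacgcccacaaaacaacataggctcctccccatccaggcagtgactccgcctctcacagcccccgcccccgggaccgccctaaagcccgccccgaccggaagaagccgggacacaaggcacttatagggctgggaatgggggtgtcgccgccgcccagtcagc

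In Hspa5 the element ended 47 bases before the start, and in Herpud1 it ended 42 bases before it. Hsp90b1 held 2 copies, 1 of them on the reverse strand, and the Creld2 copy was on the reverse strand. A match describes letters in this window only and is not a measured binding site.

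**Figure D1:**
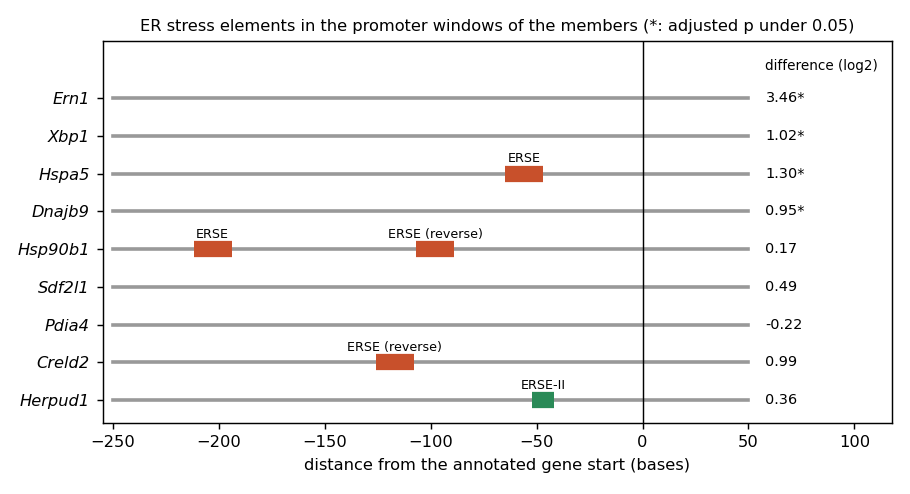
Position of ERSE (orange) and ERSE-II (green) in the promoter windows of 9 members, as distance in bases from the annotated start, with each gene's difference between cLP and MLN Treg on the log2 scale at the right. Of the 4 genes marked as past the threshold, Hspa5 alone has an element in its window.

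Probe intensities were corrected for background, quantile normalised and put on the log2 scale, and differences are cLP minus MLN. Detected probes made up 32.68% to 35.15% of all probes on the MLN arrays and 34.29% to 35.43% on the cLP arrays. The ratio of the median signal of detected probes to that of undetected probes was 3.33 to 4.10 on the MLN arrays and 2.61 to 3.18 on the cLP arrays. All 8 Treg and T cell markers on the array, among them Foxp3, Cd4 and Cd3e, were detected on all 6 arrays. Over 9157 genes, 1107 (12.1%) were higher and 1861 (20.3%) lower in cLP Treg by limma at a Benjamini-Hochberg adjusted p under 0.05, so that 32.4% passed in either direction. The median difference of all genes was -0.21. Higher genes were 37.3% of the calls, but 21.5% with median scaling (median difference -0.51), 24.1% in the values the authors normalised (-0.30) and 50.3% with the median difference set to 0. Whether each sample stands for its own animal or pool is not stated in the labels, and the p-values therefore cover sample-to-sample spread alone, part of which may be technical. In RNA from many cells, fewer cells with a transcript and less of it per cell cannot be told apart.

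Of the 9 members tested, 4 (44.4%) were higher in cLP Treg and 0 were lower, beside 12.1% and 20.3% of all genes. These were the sensor gene Ern1, its target Xbp1, the chaperone Hspa5 and the co-chaperone Dnajb9. The other 5, Creld2, Sdf2l1, Herpud1, Hsp90b1 and Pdia4, did not pass the test. The median difference of the 9 genes was 0.95, beside -0.21 for all genes. The same 4 genes had all 3 cLP values above all 3 MLN values, a pattern seen in 16.8% of all genes, while 0 had all cLP values below, as 30.1% of all genes did. In the other 5 the groups overlapped. At the level of probes, 7 of 14 passed, all of them higher, where 31.8% of the 16215 probes tested passed in either direction and 14.5% were higher. In each of the 4 members with several tested probes, all probes had the same sign. Over all genes, 67% of the 3145 with several tested probes did so.

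Ern1, which encodes IRE1 alpha, showed the largest change. By probe ILMN_2502860 its log2 intensity was 9.24, 8.44 and 8.67 for MLN samples 1 to 3, against 12.06, 12.43 and 12.24 for cLP samples 1 to 3. Every cLP sample lay more than 2 log2 units above every MLN sample. The difference was 3.46 ± 0.27 (standard error), or 10.99-fold (95% interval 7.10 to 17.02; limma, adjusted p = 0.000249). It ranked 116 by size among all genes, at the 99.1 percentile of the signed differences.

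The other probes of Ern1 gave the same direction. ILMN_1247556 had unprocessed intensities of 134.5, 146.3 and 98.7 in MLN Treg, against 1219.4, 400.9 and 492.7 in cLP Treg. ILMN_1221898 had 100.1, 104.6 and 74.7 against 282.5, 331.2 and 484.2. Neither was detected on any MLN array, and both were detected on all 3 cLP arrays. Their increases are therefore bounds, at least 14.3-fold (limma, adjusted p = 0.00063) and at least 6.84-fold (adjusted p = 0.000556). A bound sets the mean of the cLP samples against, for each MLN array, the higher of the dimmest detected signal and the probe's own value.

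Xbp1, the transcription factor downstream of IRE1 alpha, was measured by 1 probe, ILMN_2431237. Its log2 intensity was 11.27, 11.28 and 11.27 for the MLN samples, against 12.31, 12.28 and 12.28 for the cLP samples. The groups were apart by far more than their spread, which after quantile normalisation was 0.0068 (SD) in the MLN and 0.018 in the cLP samples. Xbp1 rose by 1.02 ± 0.19, or 2.02-fold (95% interval 1.48 to 2.77; limma, adjusted p = 0.00715). With median scaling the increase was 0.62 (adjusted p = 0.0436). The very small spread depended on the normalisation. In the authors' values the probe varied more, at 3.916, 3.802 and 4.055 in MLN Treg against 4.546, 4.669 and 4.61 in cLP Treg. The groups were still apart there. The probe sequence was not used here, so spliced and unspliced Xbp1 mRNA are not distinguished.

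Atf6, the sensor that itself becomes a transcription factor, was near background. Probe ILMN_2451709 read 120.5, 133 and 90.9 in MLN Treg, against 171.2, 149.4 and 94.1 in cLP Treg, and was detected on 0 MLN and 2 cLP arrays. Probe ILMN_2454587 read 184.4, 128.1 and 118.3 against 143.4, 157.2 and 112.9 and was detected on 1 array of each group. The groups overlapped for both probes. When all probes were fitted without a detection filter, neither differed past the threshold (limma, adjusted p = 0.382 and 0.874). Probes of the remaining sensor gene, Eif2ak3 (PERK), named here for its role, were likewise detected on no MLN array and on at most 1 cLP array.

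Hspa5 encodes BiP, the main Hsp70 chaperone of the ER and a partner that holds the sensors inactive. Its log2 intensity was 11.83, 11.64 and 12.14 in MLN Treg, against 12.88, 13.45 and 13.19 in cLP Treg (probe ILMN_1255561). The lowest cLP sample lay above the highest MLN sample. The difference was 1.30 ± 0.25, or 2.47-fold (95% interval 1.65 to 3.71; limma, adjusted p = 0.00749). Its window, printed above, holds 1 ERSE.

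Dnajb9 encodes ERdj4, a J-domain co-chaperone of BiP and a textbook XBP1 target. Probe ILMN_2510875 read 9.46, 10.14 and 9.96 in MLN Treg, against 10.90, 10.91 and 10.61 in cLP Treg on the log2 scale. All cLP samples were above the MLN samples, and MLN sample 1 was the lowest. Dnajb9 rose by 0.95 ± 0.25 (1.94-fold; limma, adjusted p = 0.0249), and its second probe, ILMN_2829636, by 1.12 ± 0.31 (adjusted p = 0.0294). This call was the least stable of the 4. It ended without MLN sample 1 (0.76, adjusted p = 0.0969), MLN sample 3 (1.01, 0.062), cLP sample 1 (0.91, 0.0569) or cLP sample 2 (0.90, 0.0632). Both median scaling (0.48, adjusted p = 0.135) and the authors' own normalisation (0.52, 0.0682) ended it too.

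Hsp90b1 encodes GRP94, the Hsp90 chaperone of the ER, and carries 2 ERSE copies in its window. Its log2 intensity was 13.18, 13.02 and 13.64 in MLN Treg, against 13.51, 13.71 and 13.14 in cLP Treg, so the groups overlapped. The difference was 0.17 ± 0.27 with a 95% interval of -0.45 to 0.79, or 0.733-fold to 1.73-fold (limma, adjusted p = 0.661). Its sign turned with median scaling, to -0.03.

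Sdf2l1, a small component of ER chaperone complexes, was dim. Its log2 intensity was 5.40, 6.56 and 5.97 in the MLN samples, where it was detected on 2 arrays, and 6.93, 5.71 and 6.76 in the cLP samples. The groups overlapped and the difference was 0.49 ± 0.42 (95% interval -0.48 to 1.46; limma, adjusted p = 0.409).

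Pdia4, a protein disulfide isomerase that forms and rearranges disulfide bonds in the ER, was the only member with a negative difference. It read 9.09, 8.35 and 7.94 in MLN Treg, against 7.48, 8.42 and 8.83 in cLP Treg. The highest and the lowest of the 6 values were MLN sample 1 and cLP sample 1. The difference was -0.22 ± 0.43 (95% interval -1.21 to 0.78; limma, adjusted p = 0.741), and its sign turned without MLN sample 1 (0.10) or cLP sample 1 (0.17).

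Creld2, an ER-resident protein with EGF-like domains that is induced by ER stress, differed by 0.99 ± 0.36 and missed the threshold (95% interval 0.16 to 1.82; limma, adjusted p = 0.0692). By probe ILMN_2983948 it read 8.95, 9.01 and 9.66 in MLN Treg, against 9.62, 10.16 and 10.81 in cLP Treg. MLN sample 3 and cLP sample 1 were almost level, and the other samples were separated. Its second probe, ILMN_2757368, differed by 0.70 ± 0.32 (adjusted p = 0.143). Creld2 passed without cLP sample 1 (1.27, adjusted p = 0.0312), with array weights (1.02, 0.0446) and with the median difference of all genes set to 0 (1.20, 0.0401). Over all its alternatives the adjusted p ran from 0.0312 to 0.339.

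Herpud1, a membrane protein of ER-associated degradation, read 11.90, 12.04 and 12.56 in MLN Treg, against 12.59, 12.54 and 12.45 in cLP Treg by probe ILMN_2790246. The cLP samples lay close together near the highest MLN sample. The difference was 0.36 ± 0.24 (95% interval -0.21 to 0.93; limma, adjusted p = 0.302), and 0.54 ± 0.30 (adjusted p = 0.216) by probe ILMN_2790241.

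**Figure D2:**
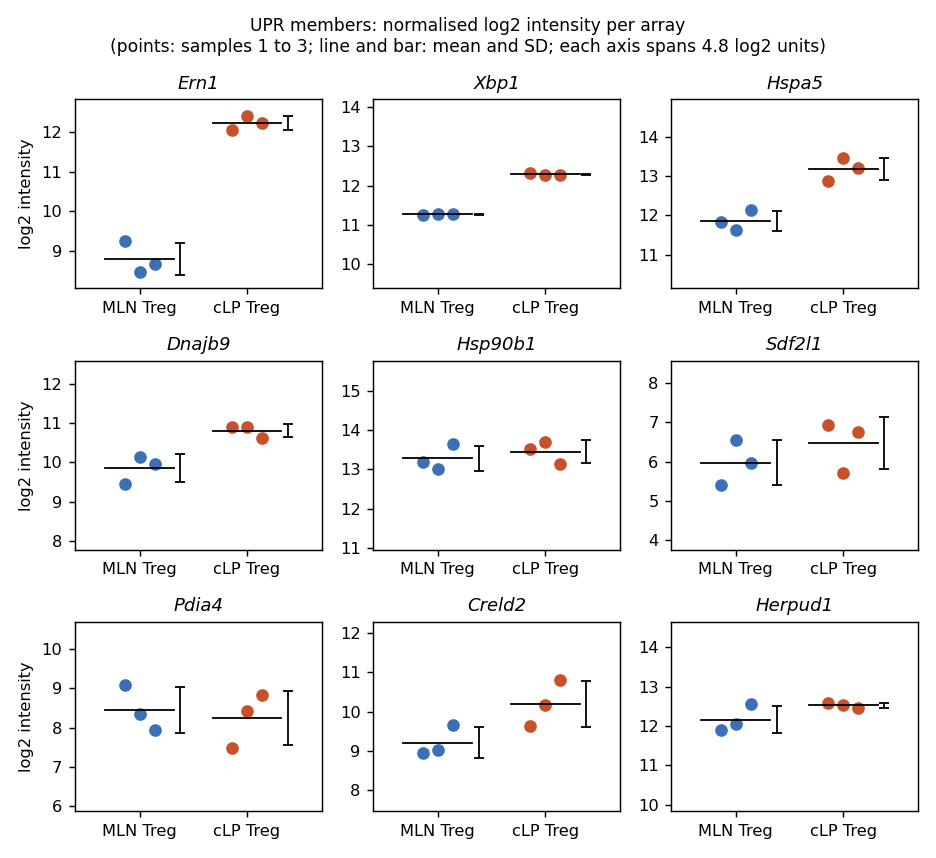
Normalised log2 intensity of the reported probe of 9 members in 3 MLN Treg (blue) and 3 cLP Treg (orange) samples, with mean and SD. The groups are apart for Ern1, Xbp1, Hspa5 and Dnajb9 and overlap for the other 5 genes.

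**Figure D3:**
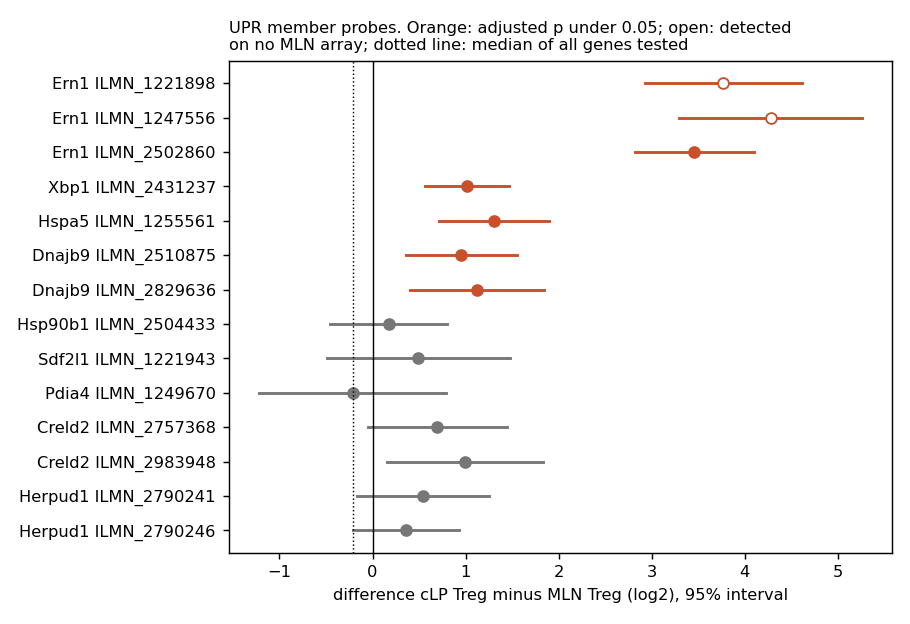
Difference between cLP and MLN Treg (log2) with 95% interval for the 14 member probes tested. The 3 Ern1 probes lie between 3.46 and 4.28, and the other probes past the threshold between 0.95 and 1.30; the open Ern1 points rest on an MLN level at background.

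Among the differences near 2-fold, those of Xbp1 and Dnajb9 passed and that of Creld2 did not. In simulated data with the same means and spreads, 100 of 9157 genes changed by 1 on the log2 scale and 100 by 2. The fit recovered 15% and 55% of them, with 5.4% false calls. Far fewer genes changed there than the 32.4% called here, which made the adjusted threshold stricter. These shares therefore do not give the recovery in the data themselves. For Creld2, Sdf2l1 and Pdia4 the 95% intervals include a 2-fold increase or decrease.

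Other regulators of the pathway were mostly not past the threshold. Of 11 measured sensors and regulators, 2 (18.2%) were higher and 1 (9.09%) lower, with a median of -0.17. Over all genes 12.1% were higher and 20.3% lower. Creb3l2, an ER-anchored transcription factor related to ATF6, rose by 3.34 ± 0.46 (limma, adjusted p = 0.00206), from a mean log2 intensity of 6.64 ± 0.73 to 9.99 ± 0.67 (SD, n = 3 each). Traf2, the adaptor that links IRE1 alpha to kinase signalling, was detected on all 3 MLN arrays and on 0 cLP arrays, and was at least 8.22-fold lower (adjusted p = 0.000232). Map3k5 (ASK1), a kinase downstream of TRAF2, was detected on 0 MLN arrays and was at least 1.19-fold higher (adjusted p = 0.0446). The Map3k5 call ended without any one of MLN samples 1 to 3 or cLP samples 1 and 2 (adjusted p = 0.0886, 0.133, 0.122, 0.104 and 0.0933). It also ended without background correction (0.132), with another background correction (0.09315), in the authors' values (0.0927) and with the replicate number as a block (0.0833).

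ER chaperones and folding enzymes outside the 10 members were mostly not past the threshold. Of 22 genes 2 (9.09%) were higher and 3 (13.6%) lower, beside 12.1% and 20.3% of all genes, with a median of 0.06. Calr, the lectin chaperone calreticulin, was detected by ILMN_2861176 on all 3 cLP arrays and on no MLN array, and was at least 13.8-fold higher (limma, adjusted p = 0.000689), while its other probe was detected on no array. Dnajc1, an ER membrane J protein, was at least 2.02-fold higher (adjusted p = 0.0164), but not without MLN sample 1, 2 or 3 (0.059, 0.0553 and 0.0518). Dnajc10, a disulfide reductase, fell by 1.31 ± 0.22 (adjusted p = 0.0044). Dnajc3, a BiP co-chaperone that restrains PERK, fell by 1.24 ± 0.28 (adjusted p = 0.0143), a call lost when MLN sample 1 or 3 was left out (0.0577 and 0.0524).

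In ER-associated degradation 3 of 23 measured genes (13%) were higher and 4 (17.4%) lower, beside 12.1% and 20.3% of all genes. The median was -0.02. The ubiquitin ligase Marchf6 rose by 1.57 ± 0.23 (limma, adjusted p = 0.00276) and by 1.76 ± 0.20 by another probe (0.00099). A further probe, detected on 1 MLN array, differed by 0.01 ± 0.35 (0.982). Sel1l, which joins substrates to the ligase SYVN1, rose by 1.10 ± 0.27 by its brightest probe (adjusted p = 0.0183), but another of its probes fell by 2.03 ± 0.44 (adjusted p = 0.0127), so its direction is not settled. Leaving out MLN sample 1, MLN sample 2 or cLP sample 2 ended the Sel1l call (0.0767, 0.0574 and 0.0503). Median scaling, the authors' values and the mean of its probes ended it too (0.09825, 0.0765 and 0.151). The ligase Rnf5 fell by 1.59 ± 0.39 (adjusted p = 0.0182; 0.0662, 0.0529 and 0.0617 without MLN sample 1, 2 or 3 and 0.0505 without cLP sample 2). Edem2, which trims mannose from misfolded glycoproteins, fell by 1.27 ± 0.20 (adjusted p = 0.00367). Its other tested probes fell by 0.43 ± 0.34 and 0.82 ± 0.31 and did not pass (0.376 and 0.0822).

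Genes of entry into the ER were mostly not past the threshold. Of 24 genes of translocation and signal peptide processing, 1 (4.17%) was higher and 2 (8.33%) lower, with a median of -0.10. Both shares lay below the 12.1% and 20.3% of all genes. Srp54a, a subunit of the signal recognition particle with close copies in the mouse genome, was at least 2.06-fold higher (limma, adjusted p = 0.0206; 0.0765 and 0.0692 without MLN sample 1 or 2, 0.0508 and 0.0591 without cLP sample 1 or 2). Tram1, a translocon-associated protein, fell by 1.03 ± 0.21 (adjusted p = 0.00895), and the mean of its probes did not pass (-0.48, 0.146). Among its other probes 1 fell by 0.94 ± 0.26 (0.0283) and 1 had the opposite sign (0.54 ± 0.33, 0.258). Srp19 fell by 0.78 ± 0.21 (adjusted p = 0.0268), a call lost when MLN sample 1, 2 or 3 or cLP sample 2 was left out (0.0653, 0.0994, 0.0685 and 0.0592). Another Srp19 probe fell by 0.97 ± 0.21 (0.0115), and a further one had the opposite sign (0.12 ± 0.23, 0.734).

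Of 26 N-glycosylation genes 1 was higher and 6 (23.1%) were lower, near the 20.3% of all genes, with a median of -0.55. Uap1, which makes UDP-N-acetylglucosamine, rose by 2.02 ± 0.38 (limma, adjusted p = 0.00721). Stt3b, a catalytic subunit of oligosaccharyltransferase, fell by 1.36 ± 0.26 (adjusted p = 0.00771). The glucosidase Mogs fell by 1.32 ± 0.40 (adjusted p = 0.0389), with the call lost without MLN sample 1, 2 or 3 (0.0971, 0.0839 and 0.125) or cLP sample 1 or 3 (0.0962 and 0.081).

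In ER to Golgi transport 4 of 27 genes (14.8%) were higher and 3 (11.1%) lower, beside 12.1% and 20.3% of all genes. The median was 0.03. The GTPase Arf4 was at least 4.40-fold higher (limma, adjusted p = 0.0257), with cLP values that varied by 1.75 (SD), and its call was lost without MLN sample 1, 2 or 3 (0.0775, 0.0814 and 0.0705) or cLP sample 1 or 2 (0.0684 and 0.0714). The COPI coat subunit Copg1 rose by 2.43 ± 0.49 (adjusted p = 0.00884), although 1 of its 4 tested probes had the opposite sign. Another coat subunit, Arcn1, fell by 2.01 ± 0.62 (adjusted p = 0.0413; 0.107, 0.133 and 0.0662 without MLN sample 1, 2 or 3 and 0.0574 without cLP sample 2). Mcfd2, a partner of the cargo receptor LMAN1, fell by 1.12 ± 0.21 (adjusted p = 0.00716).

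In the list named for PERK and ATF4, 7 of 10 measured genes were higher (70%, beside 12.1% of all genes) and 0 lower, with a median of 1.92. The list does not measure PERK activity, and whether PERK had a part was not tested. The list's largest increases were in the transcription factor gene Atf3, at least 14.2-fold (limma, adjusted p = 0.000194, detected on 0 MLN arrays), and in the asparagine synthetase Asns, which rose by 3.10 ± 0.34 (adjusted p = 0.00089). Atf3 is also an immediate early gene, so the same value enters both lists.

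**Figure D4:**
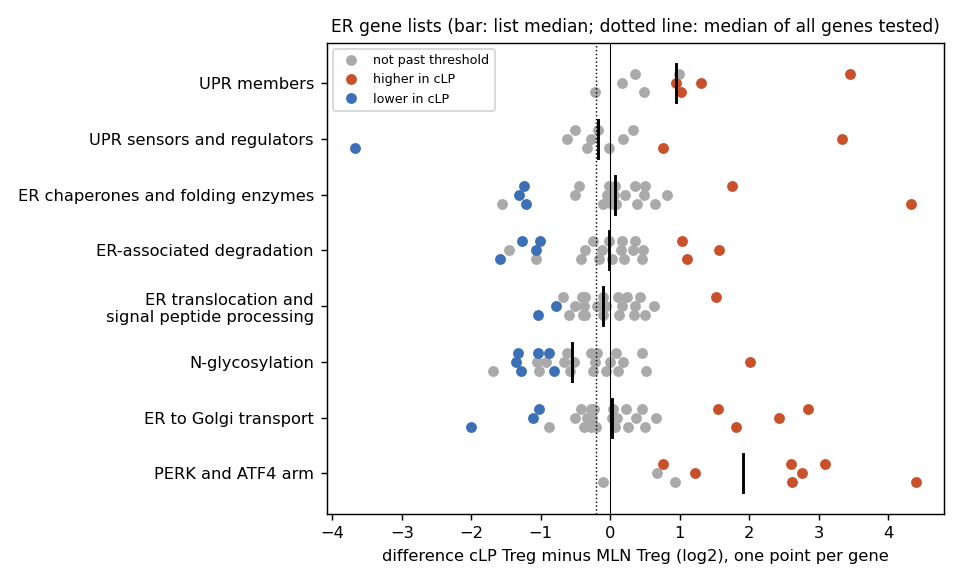
Difference between cLP and MLN Treg (log2) for each measured gene of 8 ER-related lists, coloured by call, with the list median as a bar. The medians of the 10 members' list (0.95) and of the PERK and ATF4 list (1.92) lie to the right of the other 6, which run from -0.55 to 0.06.

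Outside the 10 members, 45 genes had ERSE or ERSE-II in a RefSeq window and 15 of them were tested. Among these 15, 2 were higher and 3 lower, where 12.1% and 20.3% of all genes were. Their median was -0.12, beside -0.21 for all genes. The list was drawn from the sequences alone. It shares Calr, Dnajc3, Alg12 and other genes with the lists above.

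Some stress genes of other compartments and some markers of other cells differed in the same samples. Of 11 heat shock genes of the cytosol and mitochondria 4 (36.4%) were higher and 0 lower, beside 12.1% and 20.3% of all genes. Hspa1b rose by 4.58 ± 0.60 by its brightest probe and by 0.96 ± 0.23 by a probe detected on no MLN array. Its near-identical copy Hspa1a read 5.18, 7.96 and 4.60 in MLN Treg, where it was detected on 1 of 3 arrays, against 12.37, 13.08 and 12.40 in cLP Treg. The size of the Hspa1a difference therefore rests on values at background and is not given. Of 13 immediate early genes 7 (53.8%) were higher and 1 (7.69%) lower, with Fosb higher by 3.93 ± 0.60 and Egr1 lower by 1.17 ± 0.32. The Egr1 call ended without MLN sample 1, 2 or 3 (limma, adjusted p = 0.0875, 0.0553 and 0.0967).

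Plasma cells are rich in the transcripts of this pathway, and 3 of their markers, Sdc1, Tnfrsf17 and Derl3, were detected on no array. Of the 8 on the array 4 were tested, and all 4 had every normalised cLP value above every MLN value. Over all genes 16.8% had this pattern. By limma 3 of these 4 were higher, beside 12.1% of all genes: Jchain (adjusted p = 0.0273), Pou2af1 (1.16 ± 0.33, 0.0312) and Prdm1 (0.87 ± 0.21, 0.0175). Pou2af1, Prdm1 and Irf4 were detected on all 3 arrays of each group, MLN Treg included. The summed unprocessed intensity of the 8 was 2910.3 to 3752.5 in the MLN and 3237.5 to 4103.1 in the cLP samples. Most of it came from Irf4 (1546.8 to 2205.2 and 1747.9 to 2522.5), so the overlap of the sums does not show whether plasma cell RNA was present. Jchain, the joining chain of secreted antibodies, was detected on 0 MLN and 3 cLP arrays, at intensities of 149, 152.7 and 105.1 in MLN and 183.3, 144.2 and 228 in cLP Treg. Stroma and endothelium markers summed to 1641.7 to 2326.2 in the MLN and 2527.4 to 3966.9 in the cLP samples, and mast cell markers to 754.9 to 902.2 and 1069 to 2209.6. In both lists the groups did not overlap, and 3 of 5 and 2 of 2 tested markers were higher, beside 12.1% of all genes. The separation of each sum was lost without 1 gene, in a check chosen after these values were seen. Without Acta2, smooth muscle actin, the stroma sums were 1557.5 to 2223.6 and 1690 to 1840.6, and without Hdc, histidine decarboxylase, the mast cell sums were 535.3 to 610.1 and 535.8 to 934.6. Other markers in these sums were higher too. Col3a1 was at least 6.05-fold higher (limma, adjusted p = 0.000816) and Sparc at least 1.75-fold (0.01645), each detected on 0 MLN and 3 cLP arrays. Kit, detected on 1 MLN and 3 cLP arrays, rose by 2.16 ± 0.59 (0.0272). Pecam1, the brightest stroma marker left, differed by -0.11 (0.815). Of the 9 stroma markers Cdh5, Col1a1 and Lyve1 were detected on no array, as were Cpa3, Fcer1a, Tpsb2 and Mcpt4 of the 6 mast cell markers.

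Of 5 tested CD8 and cytotoxic cell markers 4 (80%) were higher, beside 12.1% of all genes. Among them was granzyme B (Gzmb), at least 7.56-fold (limma, adjusted p = 0.000168), while Cd8a was detected on no array. The remaining tested marker, Cd8b1, went the other way and did not pass (-0.78 ± 0.27, adjusted p = 0.0622). Its cLP values all lay below its MLN values, as in 30.1% of all genes. The summed intensity of the 6 such markers on the array was 24473.8 to 28103.4 in the MLN and 27369.1 to 37039.5 in the cLP samples, which overlap. Most of it came from Prf1 (17665.3 to 21760.5 and 22214.4 to 33227.7), while Cd8b1 fell (5516.2 to 6489.2 and 1951.3 to 3274.8). The overlap of the sums therefore says little about the dimmer markers. Among B cell markers 1 of 4 was lower (Cd79b, which fell by 2.72 ± 0.30, adjusted p = 0.000887). Among macrophage and dendritic cell markers it was 1 of 2 (Lyz2, which fell by 1.54 ± 0.39, adjusted p = 0.0203). Over all genes 20.3% were lower. Of 3 tested colon epithelium markers 0 passed by limma, and 1, Krt8, had an unadjusted p under 0.05 (0.0184; adjusted p = 0.055). The 8 epithelium markers on the array summed to 1041.1 to 1339.1 in the MLN and 1428.6 to 1926.6 in the cLP samples, which do not overlap. Muc2, Car1 and Krt18, not tested, were each detected on 0 MLN and 2 cLP arrays. Epcam had the opposite sign (-0.71, adjusted p = 0.327), and Vil1 was detected on no array. The part of these cells, and of the immediate early and heat shock genes, in the differences of the 10 members was not tested.

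**Figure D5:**
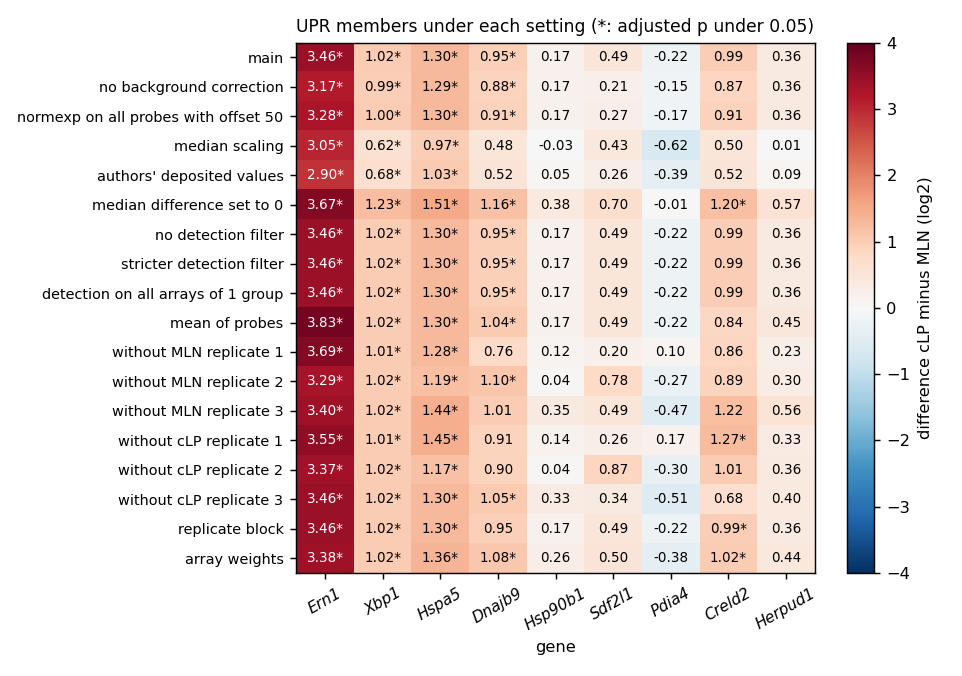
Difference between cLP and MLN Treg (log2) of 9 members under the setting reported (top row) and 17 alternatives, with an asterisk where the adjusted p was under 0.05. Ern1, Xbp1 and Hspa5 carry an asterisk in every row, Dnajb9 in 11 of 18 and Creld2 in 4.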

How the data were processed

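Total RNA of 6 samples was measured on Illumina bead arrays, 1 array a sample, after amplification in several rounds per the labels' protocols. The source label gave each group, because the titles write MSN for the samples of the mesenteric lymph node. The authors deposited a table of probe intensity on a linear scale, with a column for each sample headed as a detection p-value. The submitters' processing notes name GenomeStudio 1.6.0. Since this deposited column grows with intensity (Spearman correlation of 0.991 or more), 1 minus its fraction was used as the detection p. A second deposited table holds log2 values, which equal log2 intensity minus the log2 of each array's 75th percentile, with column medians of -0.728, -0.607 and -0.848 (MLN samples 1 to 3) and -0.596, -0.689 and -0.661 (cLP samples 1 to 3). All 45281 probes matched between the tables by their values within 0.1 in signal (largest difference 0.0347), which leaves neither scale, centring nor direction unknown.

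Symbols came from the platform annotation (34885 probes with 1 symbol, 18 with several, 10378 with none), and 0 needed an update. The analysis used limma 3.58.1 (R 4.3.3), with normexp background correction whose control moments came from the detection p, an offset of 16, and quantile normalisation. Probes with a detection p under 0.05 on at least 3 of 6 arrays were kept. For each gene the kept probe with the highest mean was tested, and a second fit covered every kept probe. Differences come from lmFit and eBayes, with p-values adjusted by Benjamini-Hochberg over all genes or probes. The fit was tested on simulated data. The number of arrays limits the precision.

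The members, lists and alternatives were chosen with earlier results of these data known. All members are named, from each other list the 2 largest increases and decreases past the threshold, and for Xbp1 and Hspa5 the 3 genes most like them. No source used here gives scan, chip or extraction batches. Alternatives covered background correction, scaling, detection filters, the probe rule, left-out arrays, a replicate block and array weights.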

Additional observations from a re-analysis of the deposited data

How the results depend on the processing

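Ern1, Xbp1 and Hspa5 stayed past the threshold under all 17 alternatives run, with differences of 2.90 to 3.83, 0.62 to 1.23 and 0.97 to 1.51. Dnajb9 lost its call under 7 alternatives (0.48 to 1.16 over all 17) and Creld2 gained one under 4 (0.50 to 1.27). Herpud1 and Sdf2l1 kept their sign and stayed below the threshold, at 0.01 to 0.57 and 0.20 to 0.87. The sign turned for Hsp90b1 with median scaling (-0.030), where the cause was not tested, and for Pdia4 without MLN sample 1 (0.10) or cLP sample 1 (0.17), in a range of -0.51 to 0.17 over left-out arrays. The members called higher numbered 3 to 5 and none was called lower. When single arrays were left out, with the normalised values kept, they numbered 3 to 4, the member probes called 5 to 7, and the genes called overall 1766 (without MLN sample 1) to 3220, against 2968. Without MLN sample 2 they numbered 1898; the cause was not tested. Outside the members, calls of Map3k5, Dnajc1, Sel1l, Rnf5, Srp54a, Srp19, Mogs, Arf4, Arcn1 and Egr1 were also lost in settings with all arrays kept. Over the 9 further lists together, 30 genes were higher and 20 lower. The number lower was 46 with median scaling, 46 in the authors' values and 12 with the median difference set to 0, and 7 to 25 with single arrays left out, among them 9, 9 and 7 without MLN sample 1, 2 or 3; the number higher was then 23 to 33. Relative to the median of all genes, Xbp1 was higher by 1.23 as reported, 1.14 with median scaling and 0.99 in the authors' values.

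The titles give both groups the replicate numbers 1 to 3. Same-numbered samples did not deviate together (correlations of -0.16, -0.10 and -0.01 across genes, beside -0.13 to 0.23 for differently numbered ones). With 3 samples a group this cannot decide whether same-numbered samples share a source. With the replicate number as a block, 2440 genes passed, Dnajb9 missed the threshold (adjusted p = 0.0585), Creld2 passed it (adjusted p = 0.0427), and 4 members were higher. Dim members (Sdf2l1, Atf6) are limited by signal over background.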

Other observations

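The genes whose profile over the 6 arrays was most like that of Xbp1 were Il10, which encodes an anti-inflammatory cytokine of Treg (Pearson's r 0.99998), Mlf1 (0.99962) and Sbno2 (0.99944). Those most like Hspa5 were Zbtb10 (0.99927), P2ry10 (0.99668) and Socs2 (0.99535), the last an inhibitor of cytokine signalling. Such values describe these arrays under this normalisation only. The 6 points fall into the 2 tissues, so any gene with a clear difference and little spread comes close to 1, and r was above 0.9 with Xbp1 for 826 and with Hspa5 for 602 of 9156 genes. Il10 rose by 5.17 on the log2 scale, against 1.02 for Xbp1.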
